A study of Oryctolagus cuniculus with 10 samples.

Results

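The 10 genes described here encode enzymes that remove superoxide and peroxides, the transcription factor NRF2 and well known targets of NRF2, measured in the livers of rabbits fed squalene. They are SOD1, SOD2, CAT, GPX1, NFE2L2, NQO1, GCLC, GCLM, HMOX1 and TXNRD1, chosen by symbol, and each of the 10 was found once among the 19123 genes of the deposited expression table. The livers came from male wild-type New Zealand white rabbits. The squalene group (n = 5) ate for 4 weeks a diet enriched with 1% sunflower oil and containing 0.5% squalene, a triterpene hydrocarbon from which the liver makes sterols. The control group (n = 5) ate the same 1% sunflower oil diet without squalene for 4 weeks. Rabbits of both groups were fasted before the livers were taken. The age of the rabbits is not given in the sources used here.

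Poly-A RNA of whole liver was sequenced, so a smaller number of cells of a type and less RNA per cell cannot be told apart. The 10 libraries held 45.3 to 46.1 M clean reads each, and ribosomal RNA made up 0.23% to 0.79% of reads. The expression table holds 1 level per diet and no value per rabbit. No SD, standard error or p could therefore be given for any expression value, and no expression difference below has a replicate check. Levels of 1 and above stand in the table without their decimal mark, so a level cannot be printed. What remains is the ratio of the deposited squalene level over the deposited control level, given as a log2 ratio (0 means equal levels, positive values a higher level on squalene). How the authors derived these levels is not given, so a ratio may differ from a plain fold between mean levels. The lost power of 10 was set to bring each ratio closest to 1, which holds only where the true ratio is under 3.16-fold in either direction. A gene with a larger true ratio would be given a wrong value and could be given the wrong direction. For comparison between genes, a ratio of 1.5-fold or more is called past 1.5-fold. Of all 19123 genes, 4.7% were past 1.5-fold higher on squalene and 3% past 1.5-fold lower, while 52.7% had a higher level on squalene by any amount.

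Superoxide dismutases turn superoxide, the by-product of respiration and of many oxidases, into hydrogen peroxide, which catalase and the glutathione and thioredoxin peroxidases reduce to water. NRF2, encoded by NFE2L2, is held at a low level by KEAP1, which hands it to a ubiquitin ligase. When oxidants or electrophiles modify KEAP1, NRF2 enters the nucleus and raises transcription of genes for glutathione synthesis, quinone reduction, haem breakdown and NADPH supply. The liver is rich in all of these systems, since it handles peroxisomal fatty acid oxidation, haem turnover and foreign compounds.

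Among the 10 genes, the level was higher on squalene for 6 and lower for 4, against the 52.7% of all genes that were higher on squalene. SOD1 alone was past 1.5-fold, which is 1 of 10 in a table where 4.7% of genes were past 1.5-fold higher. No member was past 1.5-fold lower. The median log2 ratio of the members was 0.10, and that of all genes was 0.02. The 4 superoxide and peroxide removing enzymes had a median of 0.29, with 3 of 4 higher on squalene. NRF2 and its 5 targets had a median of -0.02, with 3 of 6 higher. The targets of NRF2 did not share a direction, as HMOX1, NQO1 and GCLM were above 0 and GCLC and TXNRD1 below it.

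**Figure D1:**
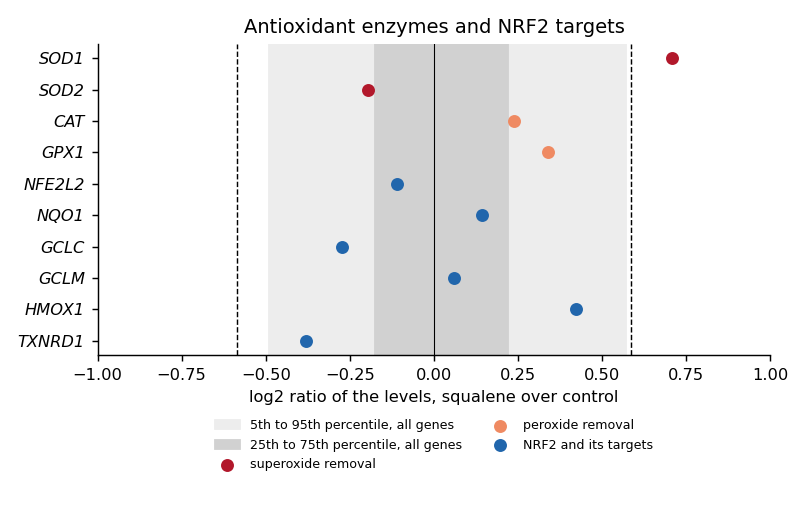
Log2 ratio of the squalene level over the control level for each of the 10 members (points, 1 value per gene, coloured by role). Grey bands give the ranges of all 19123 genes and dashed lines mark 1.5-fold. SOD1, at 0.71, is the only point beyond a dashed line.

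SOD1, the copper-zinc superoxide dismutase of the cytosol, had the highest ratio of the members. Its level on squalene was 1.63 times the control level (log2 ratio 0.71), and 2.49% of all genes had a higher ratio. CCS, the chaperone that loads copper into SOD1, was also past 1.5-fold, at a log2 ratio of 0.75. With the median of genes of its length subtracted it was at 0.57 and no longer past 1.5-fold. SOD2, the manganese enzyme of the mitochondrial matrix, lay on the other side of 0, with a ratio of 0.873 (log2 ratio -0.20). Of all genes, 50.3% were at least as far from 0 as SOD2. SOD3, the secreted dismutase, had a log2 ratio of 0.17, or 0.01 once the median of genes of its length was subtracted. The 3 dismutases thus ran from -0.20 to 0.71. A second gene of the table, LOC108176430, has the SOD1 protein as its closest match and a transcript of 373 bases, with a log2 ratio of 0.08. Reads that fit both genes could have been divided between them, so the value of SOD1 carries that uncertainty.

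Transcript length moved with these ratios across the whole table. Over the 15928 genes with both levels at 1 or above, the Spearman correlation of transcript length with the log2 ratio was -0.34, a description across genes, which are not independent replicates and share the same 10 libraries. The median log2 ratio was 0.22 in genes of over 500 and up to 1000 bases, 0.01 in genes of over 2000 and up to 3000 bases, and -0.21 in genes of over 6000 bases. In these length classes 13.5%, 3.32% and 2.06% of genes were past 1.5-fold higher on squalene. SOD1, at 869 bases, belongs to the first of these classes. Among genes of like length (from 0.8 times its own length up to its own length divided by 0.8, with both levels at 1 or above), 11.5% were past 1.5-fold higher and 5.74% had a higher ratio than SOD1. With the median of those genes subtracted, SOD1 stood at 0.50 and was no longer past 1.5-fold. The part of transcript length in the ratios was not tested further.

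**Figure D2:**
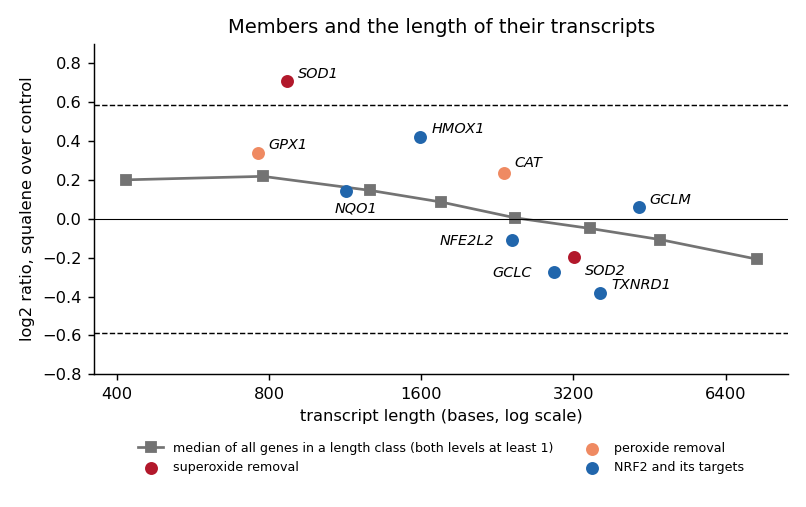
Log2 ratio of the squalene level over the control level (vertical axis) against transcript length in bases (horizontal axis, log scale) for the 10 members (coloured points). Grey squares are medians of all genes in 8 length classes, which run from 0.22 in short genes to -0.21 in the longest. SOD1 and GPX1, the shortest members, lie above the line, as do CAT, HMOX1 and GCLM, the longest member. NQO1 lies close to the line, and SOD2, NFE2L2, GCLC and TXNRD1 lie below it.

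CAT encodes catalase, which splits hydrogen peroxide in peroxisomes. Its level on squalene was 1.18 times the control level (log2 ratio 0.24), and 23.2% of all genes had a higher ratio. At 2331 bases it lay where the length medians are near 0, and stood at 0.22 after subtraction. Catalase shares its organelle with the peroxide-producing fatty acid oxidases. Of 25 measured genes for peroxisome proteins, 21 had a higher level on squalene, with a median log2 ratio of 0.13, or 0.11 after subtraction of the medians of genes of like length. ACAA1, the peroxisomal thiolase, was the only one past 1.5-fold, at 0.59, and was no longer so after that subtraction (0.48) or after centring on the median of all genes. It was followed by the membrane assembly factor PEX3 at 0.56. PEX26, which serves protein import, was lowest at -0.29.

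GPX1, the cytosolic selenoenzyme that reduces hydrogen peroxide with glutathione, had a level on squalene 1.27 times the control level (log2 ratio 0.34). The share of all genes with a higher ratio was 15.1%. GPX1 has the shortest transcript of the members, 760 bases, and among genes of like length 35.7% had a higher ratio, which put it at 0.12 after subtraction. A predicted gene of 822 bases has GPX1 as its closest protein and a log2 ratio of 0.32, so reads may again have been divided. Of the 21 measured genes of other peroxide removal, 17 had a higher level on squalene, with a median of 0.15. Past 1.5-fold higher were CCS (0.75), the epithelial glutathione peroxidase GPX2 (0.75) and the lipoprotein-bound lactonase PON3 (0.69). Past 1.5-fold lower was GPX3, the secreted plasma peroxidase, at -0.64. The 21 genes have a median length of 1303 bases, against 2238 bases over all genes. With the medians of genes of like length subtracted, their median was -0.01, CCS, GPX2 and PON3 were at 0.57, 0.57 and 0.52 and no longer past 1.5-fold, and GPX3 stayed past 1.5-fold at -0.74.

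GPX1 is made only where selenocysteine can be inserted. The 16 measured genes of selenoprotein synthesis and other selenoproteins had a median log2 ratio of 0.05, with 11 above 0. DIO1, the liver deiodinase that activates thyroid hormone, was past 1.5-fold at 0.68, or 0.49 after subtraction. SELENOM, an endoplasmic reticulum selenoprotein, followed at 0.52, or 0.30 after subtraction. The lowest were SELENOI, an ethanolamine phosphotransferase, at -0.38, and SEPHS2, which makes the selenium donor, at -0.17.

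NFE2L2 itself had a level on squalene 0.927 times the control level (log2 ratio -0.11), within the middle of all genes, of which 68.1% had a higher ratio. NRF2 is controlled mainly through the stability of the protein, which these data do not measure. Of the 15 measured genes for regulators and partners of NRF2, 7 were above 0 and 8 below, the median was -0.06, or 0.04 after subtraction of the medians of genes of like length, and none was past 1.5-fold in either direction. KEAP1 had a log2 ratio of 0.07 and CUL3, the scaffold of its ubiquitin ligase, 0.12. The highest ratios were those of GSK3B, a kinase that marks NRF2 for degradation, at 0.16, and PGAM5, a mitochondrial partner of KEAP1, at 0.14, which were at 0.34 and 0.05 after subtraction. The lowest were the coactivator CREBBP at -0.46 and the ubiquitin ligase TRIM21 at -0.39, at -0.26 and -0.45 after subtraction. SQSTM1, the autophagy receptor that sequesters KEAP1 and is also a target of NRF2, had a log2 ratio of -0.26.

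The splicing tables give 5 read counts per diet, and none of their 46 events lies in a member. The labels name 5 samples per diet, and each count was taken as 1 rabbit, although a legend of the study speaks of partial pooling for the sequencing. If libraries were pooled, n below counts libraries and not animals. Among the related genes, 1 event was listed, in BTRC, the F-box protein that in human and mouse cells directs NRF2 to degradation independently of KEAP1. It concerns a pair of mutually exclusive exons on the plus strand of OryCun2.0 sequence NC_013686.1, the first of 108 bases (49457984 to 49458091) and the second of 78 bases (49498230 to 49498307). Of the reads that distinguish the pair, squalene rabbits had the first exon in 75%, 100%, 100%, 100% and 90.9%, against 50%, 65.0%, 55.6%, 75% and 100% in control rabbits. The groups overlap, since 1 control rabbit had reads of the first exon only. The mean was 93.2% ± 10.9 on squalene and 69.1% ± 19.7 on the control diet (SD, n = 5 each), a difference of 24.1 percentage points that did not pass the test at 0.05 (exact permutation of the 5 against 5 values, two-sided, p = 0.0873, smallest possible p 0.00794). These shares rest on 4 to 20 reads per rabbit, and over all rabbits on 42 of 46 reads on squalene and 47 of 68 reads on the control diet. Leaving out each rabbit in turn gave differences of 19.3 to 31.8 points, with exact p from 0.0238 to 0.127, and only without the control rabbit at 100% was p under 0.05. With at least 10 reads in a rabbit, 3 squalene and 4 control rabbits remained and the difference was 16.1 points (exact permutation p = 0.314). The authors' tables hold only events selected on these same rabbits, so the event is not independent evidence. The BTRC level itself had a log2 ratio of -0.09, or 0.04 after subtraction.

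**Figure D3:**
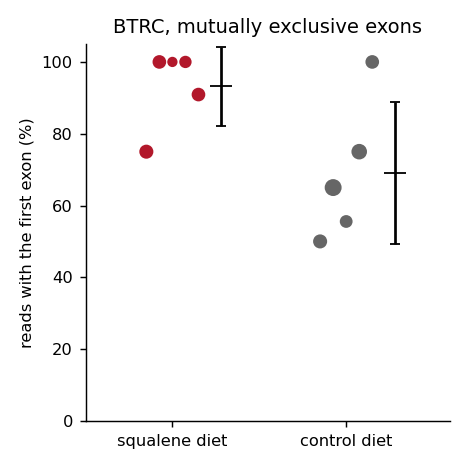
Percent of BTRC reads with the first of the mutually exclusive exons (vertical axis) in each of 5 squalene rabbits (left) and 5 control rabbits (right). Point area grows with the reads behind a value (4 to 20), and bars give the mean and SD. The squalene rabbits lie between 75% and 100%, and the control rabbits between 50% and 100%.

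GCLC and GCLM encode the catalytic and the modifier subunit of glutamate-cysteine ligase, the rate-limiting enzyme of glutathione synthesis. GCLC had a level on squalene 0.827 times the control level (log2 ratio -0.27), and 16.3% of all genes had a lower ratio. GCLM was near parity, at 1.04 times the control level (log2 ratio 0.06). The subunits thus lay on opposite sides of 0, and did so also after subtraction of the medians of genes of like length, at -0.25 for GCLC and 0.14 for GCLM. GSS, which completes glutathione, was at -0.29 and the cystine transporter subunit SLC3A2 at -0.24, the lowest of the 17 measured genes for glutathione use and synthesis. In that list 7 genes were above 0 and 10 below, with a median of -0.04, or -0.11 after subtraction. One was past 1.5-fold, GGT1, the surface enzyme that breaks glutathione down, at 0.77 and at 0.73 after subtraction. ESD, an S-formylglutathione hydrolase, followed at 0.50. GSR, which regenerates reduced glutathione, had a log2 ratio of -0.11.

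HMOX1, which opens the haem ring and is among the most inducible targets of NRF2, had the highest ratio of the 5 NRF2 targets among the members. Its level on squalene was 1.34 times the control level (log2 ratio 0.42), short of 1.5-fold, and 10.4% of all genes had a higher ratio. After subtraction of the median of genes of like length it stood at 0.32. HMOX2, the constitutive enzyme, had a log2 ratio of 0.09, or -0.06 after subtraction. Of the 21 genes of haem and iron handling, all measured, 15 were above 0, with a median of 0.17, or 0.13 after subtraction. ALAD, the second enzyme of haem synthesis, was at 0.63 and BLVRB, a biliverdin reductase, at 0.61. Both were past 1.5-fold, though not after subtraction, at 0.48 and 0.43. The later enzymes of haem synthesis UROD, UROS, CPOX, PPOX and FECH lay between 0.22 and 0.41, and between 0.19 and 0.36 after subtraction. The lowest ratios were those of ALAS1, the rate-limiting first enzyme of haem synthesis, at -0.49, and the ferroxidase ceruloplasmin, CP, at -0.43. The ferritin chains FTL and FTH1, targets of NRF2 that store iron, were at 0.51 and 0.33, and at 0.29 and 0.15 after subtraction.

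TXNRD1, the cytosolic selenoenzyme that reduces thioredoxin with NADPH, had the lowest ratio of the members. Its level on squalene was 0.767 times the control level (log2 ratio -0.38), and 9.17% of all genes had a lower ratio. After subtraction of the median of genes of like length it stood at -0.33. LOC108176675, annotated as similar to TXNRD1, with a transcript of 1228 bases, had a log2 ratio of -0.23, and reads may have been divided between the genes. TXNRD2, the mitochondrial reductase, was at 0.24 and TXNRD3 at 0.17. TXN, the substrate of TXNRD1, was at 0.15, or -0.08 after subtraction, and TXNIP, which binds and inhibits thioredoxin, at -0.34. The 4 measured peroxiredoxins, which draw on thioredoxin, ran from -0.06 (PRDX6) to 0.41 (PRDX4), which were at -0.15 and 0.24 after subtraction.

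NQO1, the quinone reductase used widely as a reporter of NRF2 activity, had a level on squalene 1.10 times the control level (log2 ratio 0.14). Genes of like length had a median of 0.16, so NQO1 stood at -0.01 after subtraction. Of the 23 other measured targets of NRF2, 13 were above 0 and 10 below, with a median of 0.09, or -0.08 after subtraction. BLVRB alone was past 1.5-fold. ME1, the cytosolic malic enzyme, which supplies NADPH, was lowest at -0.52, followed by PGD of the pentose phosphate pathway at -0.32. TKT, of the same pathway, was at -0.28.

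**Figure D4:**
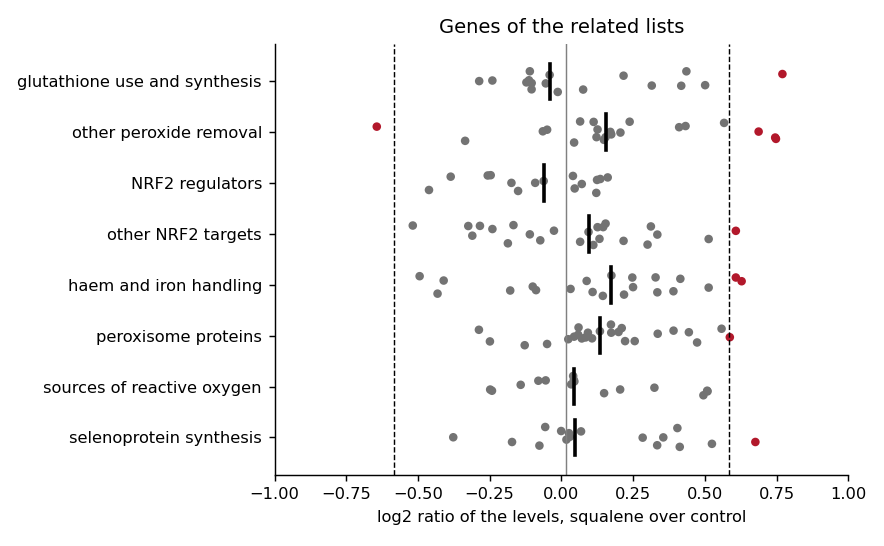
Log2 ratio of the squalene level over the control level for every measured gene of the 8 related lists (points, 1 gene each, red where past 1.5-fold). Thick bars are list medians, from -0.06 (NRF2 regulators) to 0.17 (haem and iron handling), the thin grey line is the median of all genes, and dashed lines mark 1.5-fold.

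Enzymes that make superoxide or peroxide were read as a further group. Of 15 measured sources of reactive oxygen, 10 were above 0 and 5 below, the median was 0.04, and none was past 1.5-fold. The highest were DUOX1 and DUOX2, the dual oxidases, both at 0.51, and the lowest were the phagocyte oxidase subunit NCF1 at -0.25 and xanthine dehydrogenase, XDH, at -0.24, which were at -0.41 and -0.13 after subtraction. DUOX1 and DUOX2 have transcripts of 6202 and 6004 bases and were past 1.5-fold only after subtraction, at 0.67 and 0.66. The subtracted medians came only from genes with both levels at 1 or above, a limit that was not applied to the list genes. Over the 8 lists together, 145 different genes were measured, 94 of them above 0, or 85 after subtraction of the medians of genes of like length. Of the 145 genes, 8 (5.52%) were past 1.5-fold higher before subtraction and 1 (0.690%) past 1.5-fold lower, against 4.7% and 3% of all genes. After subtraction 3 (2.07%) were past 1.5-fold higher and 1 (0.690%) lower. The share of all genes past 1.5-fold after the same subtraction was not computed, so these counts have no background beside them.

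Markers of the cell types of the liver were read beside these values. Of 7 measured hepatocyte markers, 3 were above 0 and 4 below, with CYP7A1, the rate-limiting enzyme of bile acid synthesis, at -1.42 and the transcription factor HNF4A at -0.66, both past 1.5-fold lower, and ALB and TTR at 0.39 and 0.43. Of 7 macrophage markers, 6 were above 0, with a median of 0.11, and all 4 lymphocyte markers were above 0, with a median of 0.25. Endothelial markers had a median of -0.16 (1 of 5 above 0), stellate cell and fibroblast markers 0.00 (3 of 6), cholangiocyte markers 0.02 (3 of 5) and erythroid markers -0.04 (1 of 3). After subtraction the cholangiocyte median was -0.11 and that of stellate cells and fibroblasts 0.12. The lymphocyte median was then 0.16, the macrophage median 0.09 and the endothelial median -0.14. ALB and TTR were at 0.34 and 0.20 after subtraction, and CYP7A1 and HNF4A at -1.39 and -0.59, still past 1.5-fold lower. Of 3 muscle markers only TTN was past 1.5-fold, at 1.57, while ACTA1 and CKM were at -0.10 and 0.13. Neither diet has a gene listed at 0, so no marker can be called absent, and the part of these markers in the ratios of the members was not tested. GAPDH and PPIB, the reference genes of the study's RT-qPCR, were at -0.02 and -0.08.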

How the data were processed

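Liver RNA of 5 squalene and 5 control rabbits was sequenced on the DNBseq platform. Per the labels and methods, the authors mapped reads with HISAT2 to the genome build OryCun2.0, used StringTie to find more transcripts, estimated gene levels with Bowtie and RSEM and detected splicing with rMATS. Tool versions, and how 5 libraries became 1 level per diet, are not given in the sources used here.

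The deposited expression levels are on a scale of their own, not per length, since 1937 genes share both levels with another gene and such groups hold up to 121 different lengths. Fold changes and p-values of the authors' own comparison stand in the same table and were not used. The deposited library sheet gives clean reads (in M) and ribosomal RNA as a percent of reads, computed by the authors. No entry of it could be tied to 1 sample, so it was read without regard to diet.

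Log2 ratios were computed here from the leading digits of both levels. In the 2953 genes with both levels below 1, which kept their decimal mark, the ratio of the deposited levels is exact and at most 1.82-fold. Whether the deposited levels were adjusted by a model, which could bring ratios closer to 1, is not given. For other genes the levels themselves do not show whether the true ratio was inside the limit. The study reports fold changes beyond this limit for several genes, none of them a member, so the ratios of some genes are wrong here. All 10 members have both levels at 1 or above.

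The members and lists were chosen with earlier results of these data known. Named are all members, the 2 highest and 2 lowest genes of each list, every list gene past 1.5-fold, and GAPDH and PPIB, except a few list genes that are not reported here. All other genes named, and the subtraction of medians by transcript length, were chosen after the values had been seen. Symbols were matched to the table, and 12 list symbols through gene IDs of RefSeq assembly mOryCun1.1. Inclusion in splicing was the reads of the first exon as a percent of both, not adjusted for exon length, on the assumption that counts at the same place of both cells come from 1 rabbit. Reads are not independent molecules. Python 3.11.15, numpy 2.4.6, pandas 2.3.3 and matplotlib 3.10.9 were used. Site tables were not used here, as no annotation of their build was given.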

Additional observations from a re-analysis of the deposited data

How the results depend on the processing

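Expression has 1 level per diet, so no alternative can give an error. No paired analysis was possible because the expression table has no value per rabbit and the rabbits of the splicing tables carry no number. Centring on the median of all genes (0.02), on the mean of GAPDH and PPIB (-0.05) or on the median of genes with a reference ID (0.02) left the number of members past 1.5-fold at 1 and gave medians of 0.08, 0.15 and 0.09, with 0 members on the other side of 0. Leaving out each member in turn gave medians of 0.06 to 0.14. At a log2 ratio of 0.32 in either direction 4 members passed, 3 higher and 1 lower, where 16.4% and 12.8% of all genes did, and at 2-fold 0 members passed. Of the related genes, 9 were past 1.5-fold, 43 past a log2 ratio of 0.32 and 0 past 2-fold. After subtraction of the medians of genes of like length, chosen after seeing the data, 0 members and 4 related genes were past 1.5-fold. The share of all genes past 1.5-fold after that subtraction was not computed.

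Reading the size of a level from its number of digits gave 6 members past 1.5-fold, as 5 of them moved by about a power of 10. Of levels at 1 or above, 89.8% have 15 digits and 9.20% have 14, as dropped trailing zeros would leave, and under this reading 21.4% of such genes would differ by over 5-fold. Ratios of low genes lay closer to 1, since 0.61% of genes with both levels below 1 were past 1.5-fold higher, against 5.22% of genes with both levels at 1 or above. For BTRC the value without each rabbit stands with the result, and only the omission of the control rabbit at 100% brought p under 0.05. Keeping only genes with both levels at 1 or above, chosen after seeing the data, kept all 10 members and gave 5.22% of genes past 1.5-fold higher and 3.36% lower. A pseudocount and other filters on low levels were not run because levels of 1 and above have no scale, and the search for NRF2 motifs in promoters and the comparison of variant sites in the members were not run because they need sequence and annotation not used here.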
